A study of Homo sapiens with 12 samples.

Results

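The replication-dependent histone genes encode the bulk H1, H2A, H2B, H3 and H4 proteins that package newly made DNA. They were taken as every row of the deposited count table whose symbol names an H1 gene numbered 1 to 6 (H1-1 to H1-6) or a clustered H2A, H2B, H3 or H4 gene (H2AC, H2BC, H3C and H4C with a number), which gave 46 of 23497 genes: 3 H1, 12 H2A, 13 H2B, 7 H3 and 11 H4 genes. Polyadenylated RNA was sequenced from WM1366, a human melanoma cell line with mutant NRAS, in 4 groups of 3 libraries. Encorafenib with binimetinib was the medium of the EB-resistant line. The VC-resistant line grew in vemurafenib with cobimetinib. Dabrafenib with trametinib was given to the DT-resistant line, and the sensitive parent was given the vehicle DMSO. Each pair joins a BRAF inhibitor and a MEK inhibitor. All cells were lysed 72 h after seeding. Each group's 3 libraries are independent experiments, numbered 2, 5 and 6, and its values are given in that order. Each drug pair has 1 line, and resistance, drug presence and culture history set each resistant line apart from its parent together, so they cannot be told apart. No drug doses appear in the sources used here.

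Replication-dependent histone genes lie in clusters, have no introns in their classical form and are transcribed mainly in S phase, when DNA is copied. Their mRNAs normally carry no poly(A) tail. They end just after a short stem-loop that is bound by SLBP, the stem-loop binding protein, and cut with the help of the U7 snRNP, and they are degraded when DNA synthesis stops. Transcripts that read past the stem-loop to a downstream signal are polyadenylated, as happens for some of these genes in differentiated or non-dividing cells. A library made from polyadenylated RNA therefore samples mostly the tailed forms, and the levels below are levels of polyadenylated histone RNA.

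The stem-loop is shown first because it is where the usual histone mRNA ends. The motif searched was GGNNNTTTTNANNNCC on the transcript strand, 16 bases with 6 paired bases on each side of a loop of 4, where each N of the first run had to pair with its partner in the second run. In the GENCODE release 29 transcripts, which exist for 44 of the 46 genes, 21 genes held it, in 5 distinct versions. Capitals mark the stem-loop and the small letters the 5 bases on each side, as DNA letters of the GRCh38 transcripts, for H3C10, H4C8, the 2 most abundant H2A genes and the 4 most abundant H2B genes that held one.
H2AC6: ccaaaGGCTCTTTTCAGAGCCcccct
H2BC21: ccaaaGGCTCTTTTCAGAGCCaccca
H2AC11: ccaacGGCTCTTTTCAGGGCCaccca
H2BC5: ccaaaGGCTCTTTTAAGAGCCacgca
H2BC4: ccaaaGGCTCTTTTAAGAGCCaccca
H2BC8: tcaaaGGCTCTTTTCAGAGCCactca
H3C10: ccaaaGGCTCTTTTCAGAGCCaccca
H4C8: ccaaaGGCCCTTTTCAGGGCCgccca
Of the 21, 10 genes shared the version printed for H2AC6, and 4 genes shared that of H4C8. The annotated transcript with the stem-loop ran well past it in several of them: by up to 1128 bases in H2AC6, by 1729 in H2BC21, by 1761 in H2AC11, by 1059 in H2BC8, by 769 in H3C10 and by up to 1655 in H4C8, but by 116 in H2BC4 and by 39 in H2BC5. H2AC6, H2BC4 and H2BC5 each also had an annotated transcript without the stem-loop. An annotated stretch of at least 100 bases after the stem-loop existed for 15 genes, of which 14 had enough counts to be tested and 1 did not. Of all 46 members, 29 had enough counts. Tested members also had longer deposited lengths, as given below, and the part of length in this count was not tested. No match in a transcript says only that these letters are not in the annotated model, which for many members stops near the end of the coding sequence.

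Promoter sequence is shown for 2 genes that rose in both the EB-resistant and the DT-resistant lines (H2AC6, H2BC21) and for an H3 and an H4 gene that rose in the EB-resistant line and not in the DT-resistant line (H3C10, H4C8). Each is the 150 bases before the annotated start, from RefSeq on GRCh38.p14, written 5′ to 3′ on the gene's strand. Capitals mark, on either strand, the letters CCAAT, those of the TATA box (TATAAA) and those of the octamer (ATTTGCAT).
H2AC6, chr6:26124022-26124171, plus strand: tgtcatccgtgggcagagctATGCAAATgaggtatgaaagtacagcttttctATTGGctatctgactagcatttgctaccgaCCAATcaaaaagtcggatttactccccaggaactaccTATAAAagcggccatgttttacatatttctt
H2BC21, chr1:149886683-149886832, minus strand: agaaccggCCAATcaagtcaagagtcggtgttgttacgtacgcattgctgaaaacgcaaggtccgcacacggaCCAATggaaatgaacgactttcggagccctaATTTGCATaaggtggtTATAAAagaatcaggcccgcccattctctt
H3C10, chr6:27809901-27810050, plus strand: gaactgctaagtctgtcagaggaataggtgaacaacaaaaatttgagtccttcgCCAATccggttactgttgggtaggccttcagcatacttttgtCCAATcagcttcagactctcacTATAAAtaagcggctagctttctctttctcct
H4C8, chr6:26285535-26285684, minus strand: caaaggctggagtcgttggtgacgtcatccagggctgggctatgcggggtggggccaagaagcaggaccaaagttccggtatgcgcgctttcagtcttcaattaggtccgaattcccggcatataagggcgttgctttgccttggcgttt
The 42 members found in the promoter table were searched over the full window, 250 bases before to 50 after the start, on both strands. CCAAT was in all 3 H1, all 11 H2A, all 13 H2B and all 6 H3 genes but in 1 of 9 H4 genes, against 34.6% of the 35116 windows of that length. TATAAA was in 29 of the 42 (69.0%), against 11.5% of all windows. The octamer was in 9 of 11 H2A and 10 of 13 H2B genes, in 0 of the H1, H3 and H4 genes, and in 1.77% of all windows. These matches are letters in a window and were not related to the levels.

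Library totals ran between 40491309 and 54495132 counts. Of the 46 genes, 29 passed the filter on low counts and were tested among 17114 genes, and 17 did not, with 11 to 92 counts each over the 12 libraries. The filter itself depends on the groups: without the EB-resistant libraries 26 members would pass, so H1-5, H4C14 and H2AC15 were tested only because of that group. The cells expressed MITF, the melanocyte master regulator, at group means of 47.1 to 66.4 CPM (counts per 1000000 counts of the scaled library total). AXL, a receptor kinase of dedifferentiated melanoma, stood at group means of 1276 to 2248 CPM. Of 12 melanocyte and melanoma markers listed, 8 were in the table and 7 were tested. TYR, DCT, SOX10, MLANA and S100B were not among the 7 tested. The 3 of 8 markers of lymphoid, endothelial or epithelial cells in the table summed to between 0.0426 and 1.17 CPM. DT-resistant replicate 2 stood apart from the other 2 DT-resistant libraries. Values without it are given below for the summed levels against sensitive and for the members that rose in that line.

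Polyadenylated histone RNA was most abundant in the EB-resistant line, next in the DT-resistant line, and lowest in the VC-resistant line, just under the parent. Summed over the 46 genes, the level was 283, 365 and 327 CPM in EB-resistant, 118, 99.9 and 101 CPM in VC-resistant, 245, 163 and 157 CPM in DT-resistant and 130, 119 and 121 CPM in sensitive libraries. No 2 groups overlapped. The share of all counts was 0.0341 ± 0.00424% in EB-resistant, 0.0103 ± 0.00065% in VC-resistant, 0.0182 ± 0.00433% in DT-resistant and 0.0124 ± 0.000675% in sensitive libraries (SD, n = 3 each). Against sensitive libraries the mean level was 2.64 times as high in EB-resistant, 0.864 times in VC-resistant and 1.53 times in DT-resistant libraries. A sum over these members has no test. More cells in S phase, more histone RNA per cell and a larger polyadenylated share of that RNA cannot be told apart in these bulk libraries.

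**Figure D1:**
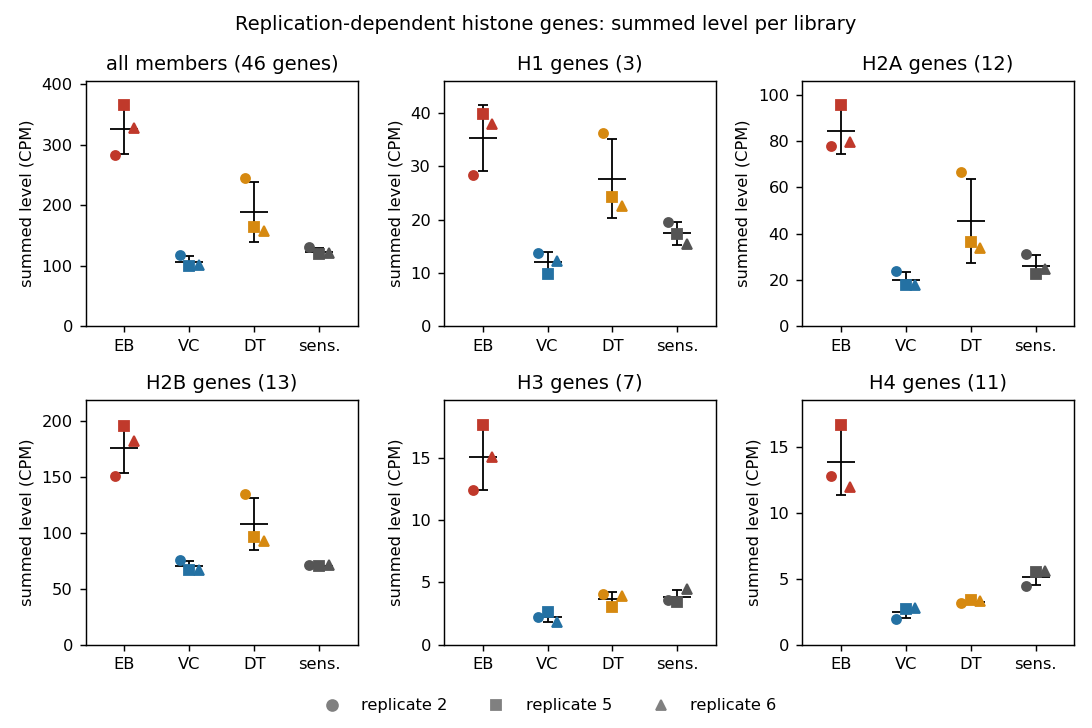
Summed level of the replication-dependent histone genes in CPM (vertical axis, starting at 0) in each library, for all 46 genes and by class. Symbols are libraries by replicate number; bars are the group mean ± SD (n = 3). The EB-resistant libraries were above the sensitive ones in every class, and the H1, H2A and H2B sums of DT-resistant replicate 2 stood above those of replicates 5 and 6.

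The classes did not move alike. H3 RNA, which encodes 1 of the core proteins of the nucleosome, summed to 15.1 ± 2.63 CPM in EB-resistant, 2.21 ± 0.394 CPM in VC-resistant, 3.65 ± 0.573 CPM in DT-resistant and 3.84 ± 0.568 CPM in sensitive libraries, so that the EB-resistant mean was 3.93 times the sensitive mean. H4 RNA summed to 13.9 ± 2.51 CPM in EB-resistant, 2.46 ± 0.473 CPM in VC-resistant, 3.26 ± 0.115 CPM in DT-resistant and 5.16 ± 0.645 CPM in sensitive libraries. For H4, the DT-resistant as well as the VC-resistant libraries lay below all sensitive libraries, with log2 ratios of -0.66 in DT-resistant and -1.07 in VC-resistant cells that were -0.28 and -0.39 without H4C8. H2B RNA, the most abundant class, summed to 176 ± 22.7 CPM in EB-resistant, 69.9 ± 5.19 CPM in VC-resistant, 108 ± 23.4 CPM in DT-resistant and 70.7 ± 0.532 CPM in sensitive libraries. Here the VC-resistant and sensitive libraries overlapped. H2A RNA summed to 84.3 ± 9.68 CPM in EB-resistant, 19.8 ± 3.62 CPM in VC-resistant, 45.5 ± 18.2 CPM in DT-resistant and 26.0 ± 4.61 CPM in sensitive libraries. H1 RNA, for the linker histones that bind between nucleosomes, summed to 35.3 ± 6.20 CPM in EB-resistant, 11.9 ± 2.03 CPM in VC-resistant, 27.7 ± 7.45 CPM in DT-resistant and 17.4 ± 2.14 CPM in sensitive libraries (SD, n = 3 each). The EB-resistant and DT-resistant libraries overlapped for H1 and for no other class, and for H1 they did so through DT-resistant replicate 2 (36.2 CPM): the other DT-resistant libraries, at 24.3 and 22.6 CPM, lay below the lowest EB-resistant one at 28.3 CPM.

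DT-resistant replicate 2 had the highest level of its group for 17 of the 29 tested members (58.6%), against 39.3% of all genes tested. VC-resistant replicate 2 was the highest of its group for 16 of 29 (55.2%, against 38.2% of all genes), sensitive replicate 2 for 13 (44.8%, against 40.1%) and EB-resistant replicate 2 for 1 (3.45%, against 33.5%). The summed level of DT-resistant replicate 2 was 245 CPM, and without it the DT-resistant mean was 161 CPM, 1.31 times the sensitive mean and 0.495 times the EB-resistant mean. By class, the DT-resistant mean was 1.59 (H1), 1.75 (H2A), 1.53 (H2B), 0.952 (H3) and 0.631 (H4) times the sensitive mean with it. Without it, these values were 1.35 (H1), 1.35 (H2A), 1.35 (H2B), 0.903 (H3) and 0.647 (H4). Compared within a replicate number, the EB-resistant level was 2.18, 3.08 and 2.71 times the sensitive one, and the VC-resistant level 0.481, 0.612 and 0.647 times the DT-resistant one, for replicates 2, 5 and 6. The DT-resistant level was 1.89 times the sensitive one in replicate 2 and 1.30 times in replicate 6, the highest and lowest of its 3. These ratios kept their direction in every replicate number. DT-resistant replicate 2 had the lowest sum of the S phase list in the series, as given with that list below, and the part of this in the result was not tested.

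A few genes carried most of the signal. H2BC12, H2AC6, H1-2, H2BC21 and H2BC5 held 80.7% of the summed level over the 12 libraries and the 10 most abundant members 90.8%. H2BC12 was the most abundant both per library (61.9 CPM) and per length (125 CPM per kb of the deposited gene length). H1-2 was next per length at 30.2 CPM per kb, then H2AC6 at 21.9 and H2BC5 at 14.8 CPM per kb. The tested members had a median deposited length of 1046 bp, and 21 of 29 were longer than 600 bp, whereas the 17 untested members had a median of 487 bp and 2 were longer than 600 bp.

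**Figure D2:**
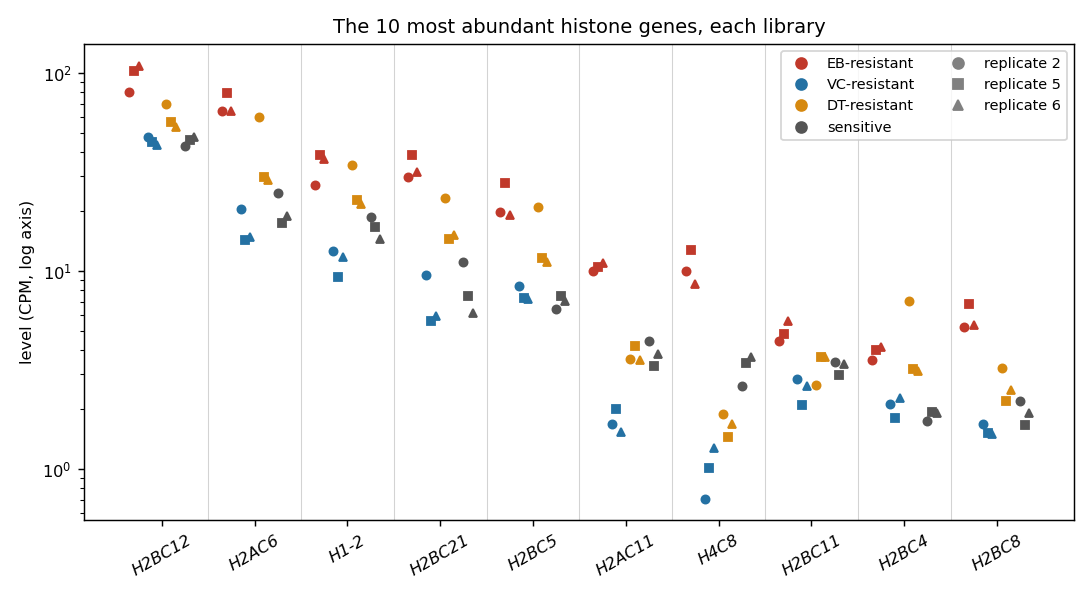
Level in CPM (log axis) of the 10 most abundant histone genes in each of the 12 libraries, in order of mean level; colours are groups and symbols replicate numbers. EB-resistant libraries were above all others for 7 of the 10 genes, while DT-resistant replicate 2 reached 21.1 CPM for H2BC5 and 7.04 CPM for H2BC4.

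The comparison of EB-resistant with sensitive cells asks what differs in the line selected with encorafenib and binimetinib. Of 29 tested members, 20 rose, where 28.5% of all genes tested rose. 0 members fell (27.6% of all genes), by edgeR's quasi-likelihood test with Benjamini-Hochberg adjustment over all genes tested and an adjusted p threshold of 0.05. At an unadjusted p under 0.05 still 0 fell, and 0 fell with DESeq2. The median log2 fold change of the tested members was 1.10, against 0.00 for all genes. Among the 26 members that pass the filter without the EB-resistant libraries, 19 rose. The 20 were 1 of 3 H1, 4 of 5 H2A, 10 of 11 H2B, 2 of 4 H3 and 3 of 6 H4 genes, with log2 fold changes between 0.59 (H2BC11) and 2.50 (H3C6). The calls of H2BC18 and H4C5 were lost when single libraries were left out. The 9 members without a call had log2 fold changes between -0.07 and 0.96.

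VC-resistant cells showed few calls. Of the 29 members, 1 rose, H2BC15 (27.6% of all genes rose), and 5 fell, H1-2, H2AC11, H3C10, H3C12 and H4C8 (27.4% of all genes fell). The median log2 fold change was -0.30. The log2 fold changes of the 5 that fell ran between -2.08 (H3C12) and -0.57 (H1-2). H3C12 overlaps H2AC17 on the same strand, and 36.5% of its 100-base windows occur there too.

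DT-resistant cells showed calls in both directions. Of the 29 members, 10 rose (34.5%, against 29.8% of all genes) and 2 fell (6.90%, against 29.3% of all genes), with a median log2 fold change of 0.38. The number that rose was thus near the share of all genes. The 10 were 2 H1 genes (H1-2, H1-4), 1 H2A gene (H2AC6) and 7 H2B genes (H2BC4, H2BC5, H2BC6, H2BC8, H2BC12, H2BC15, H2BC21), and the 2 that fell were H2BC18 and H4C8. Without DT-resistant replicate 2, 8 of the 10 were still called by edgeR and H1-4 and H2BC8 were not. The log2 fold change was then 0.43 for H1-2 (adjusted p = 0.0287), 0.29 for H2BC12 (0.0335) and 0.86 for H2BC21 (0.0177). It was 0.71 for H2BC5 (0.000998), 1.25 for H2BC15 (0.00107) and 0.30 for H2BC8 (0.225), and the other 4 are given with their levels. Against the same sensitive libraries, 9 of the 10 also rose in the EB-resistant line, and since both comparisons share those libraries this count is a description.

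**Figure D3:**
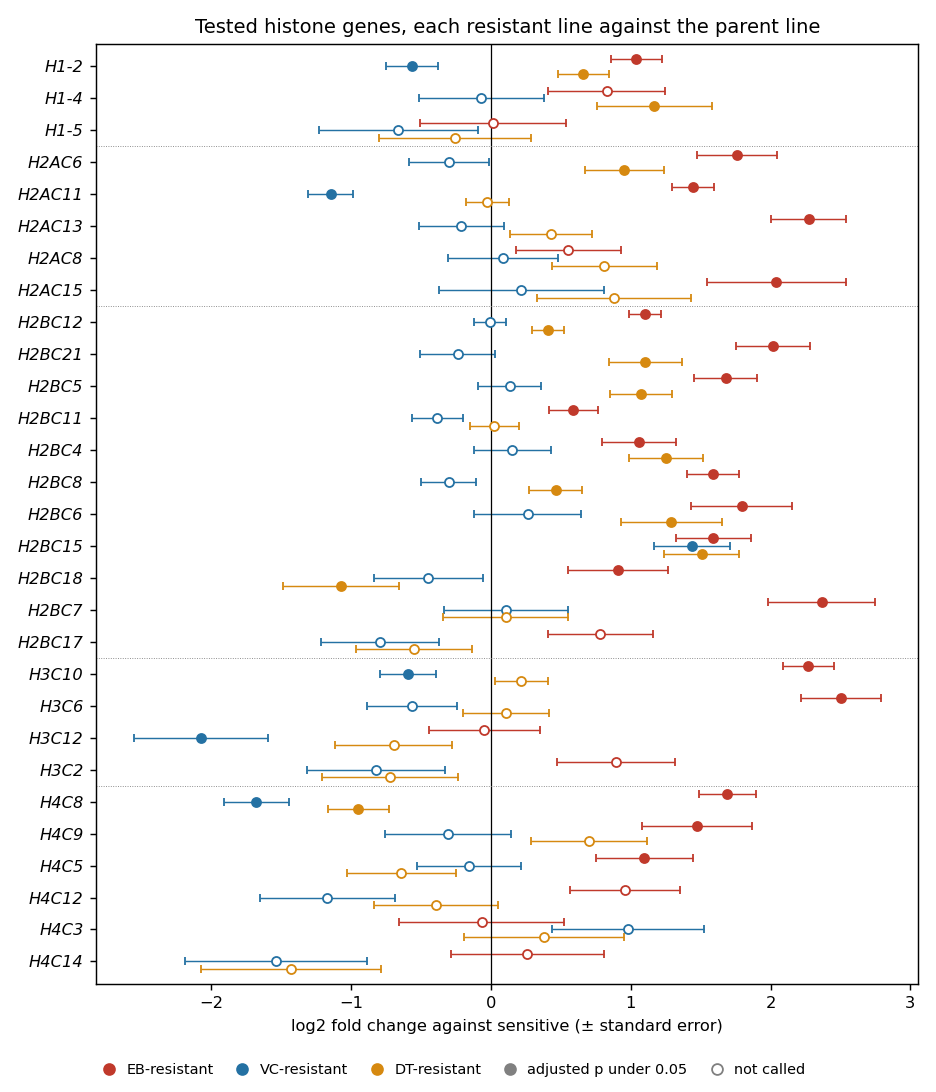
Log2 fold change against sensitive (horizontal axis, ± standard error) of the 29 tested histone genes in the EB-resistant, VC-resistant and DT-resistant lines; dotted lines separate the classes and filled symbols mark an adjusted p under 0.05. The EB-resistant symbols lie right of 0 for 27 of 29 genes, and the 20 calls in that line are all on that side.

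Among the H1 genes, H1-2 was by far the most abundant. H1-2 (chr6:26055740-26056470, hg38) stood at 27.3, 38.4 and 36.7 CPM in EB-resistant, 12.6, 9.35 and 11.8 CPM in VC-resistant, 34.1, 22.9 and 21.7 CPM in DT-resistant and 18.7, 16.6 and 14.5 CPM in sensitive libraries. H1-2 rose in EB-resistant (log2 fold change 1.04 ± 0.18 SE, adjusted p = 0.000261) and in DT-resistant cells (0.66 ± 0.18, adjusted p = 0.0068) and fell in VC-resistant cells (-0.57 ± 0.19, adjusted p = 0.0197). The resistant lines did not overlap the sensitive libraries in any of these, but the fall in VC-resistant cells was no longer called without VC-resistant replicate 5 (adjusted p = 0.0928) or sensitive replicate 2 (adjusted p = 0.0769). H1-4 stood at 0.855, 1.06 and 1.09 CPM in EB-resistant, 1.02, 0.308 and 0.336 CPM in VC-resistant, 1.91, 1.06 and 0.829 CPM in DT-resistant and 0.696, 0.476 and 0.522 CPM in sensitive libraries. It rose in DT-resistant cells (1.17 ± 0.41, adjusted p = 0.0234), a call that was lost without DT-resistant replicate 2 (adjusted p = 0.144) or without sensitive replicate 5 or 6 (0.0797 and 0.0649). In EB-resistant cells its log2 fold change was 0.83 (adjusted p = 0.105). H1-5, the remaining member, lay between 0.0691 and 0.346 CPM in all libraries and was not called.

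The H2A genes were led by H2AC6, which was among those that rose in EB-resistant and DT-resistant cells. H2AC6 (chr6:26124145-26139116) stood at 64.0, 79.5 and 64.3 CPM in EB-resistant, 20.6, 14.3 and 14.9 CPM in VC-resistant, 60.2, 29.7 and 28.8 CPM in DT-resistant and 24.8, 17.6 and 18.9 CPM in sensitive libraries. EB-resistant libraries were above all others, and DT-resistant replicate 2 lay far above the other DT-resistant libraries and just below the EB-resistant ones. The gene rose in EB-resistant cells (1.76 ± 0.29, adjusted p = 0.000406) and in DT-resistant cells (0.95 ± 0.28, adjusted p = 0.0147). Without DT-resistant replicate 2 the DT-resistant log2 fold change was 0.52 and was still called (adjusted p = 0.0223), while leaving out sensitive replicate 5 or 6 ended the call (adjusted p = 0.054 and 0.055). H2AC11 (chr6:27133042-27135291) stood at 9.96, 10.5 and 10.9 CPM in EB-resistant, 1.68, 2.00 and 1.53 CPM in VC-resistant, 3.57, 4.19 and 3.55 CPM in DT-resistant and 4.44, 3.31 and 3.79 CPM in sensitive libraries. It was thus highest in EB-resistant, lowest in VC-resistant and overlapping between DT-resistant and sensitive libraries. H2AC11 rose in EB-resistant (1.45 ± 0.15, adjusted p = 9.85e-07) and fell in VC-resistant cells (-1.15 ± 0.16, adjusted p = 3.03e-05). H2AC13 stood at 2.50, 3.87 and 2.35 CPM in EB-resistant, 0.525, 0.506 and 0.522 CPM in VC-resistant, 0.787, 0.926 and 0.714 CPM in DT-resistant and 0.544, 0.437 and 0.827 CPM in sensitive libraries. It rose 4.83-fold in EB-resistant cells (adjusted p = 4.02e-06). H2AC13 shares 57.7% of its 100-base windows with H2AC14, so its reads may be split or lost. H2AC15 was also called in EB-resistant cells, at means under 1 CPM, having passed the filter only through that group, and H2AC8 had no call against sensitive in any line.

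H2B was the class with the most calls. H2BC12 (chr6:27146361-27146855) stood at 80.2, 103 and 109 CPM in EB-resistant, 47.2, 44.9 and 43.1 CPM in VC-resistant, 70.1, 56.7 and 53.5 CPM in DT-resistant and 42.8, 45.8 and 47.3 CPM in sensitive libraries. H2BC12 rose in EB-resistant cells (1.10 ± 0.11, adjusted p = 1.02e-06) and by less in DT-resistant cells (0.41 ± 0.11, adjusted p = 0.00644), and VC-resistant libraries overlapped the sensitive ones. H2BC21 (chr1:149884459-149886652) stood at 29.9, 38.5 and 31.5 CPM in EB-resistant, 9.55, 5.57 and 5.93 CPM in VC-resistant, 23.3, 14.5 and 15.2 CPM in DT-resistant and 11.1, 7.46 and 6.16 CPM in sensitive libraries. H2BC21 rose in EB-resistant (2.01 ± 0.27, adjusted p = 4.4e-05) and DT-resistant cells (1.10 ± 0.26, adjusted p = 0.0034). H2BC5 (chr6:26158146-26171349) stood at 19.9, 27.8 and 19.2 CPM in EB-resistant, 8.42, 7.33 and 7.24 CPM in VC-resistant, 21.1, 11.6 and 11.1 CPM in DT-resistant and 6.40, 7.44 and 7.05 CPM in sensitive libraries. H2BC5 rose in EB-resistant (1.68 ± 0.22, adjusted p = 2.41e-05) and DT-resistant cells (1.07 ± 0.22), and in replicate 2 its DT-resistant level was above the EB-resistant one.

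H2BC4 was the member whose DT-resistant change against sensitive was nominally larger than its EB-resistant one among the 10 most abundant. It stood at 3.56, 3.99 and 4.12 CPM in EB-resistant, 2.13, 1.80 and 2.29 CPM in VC-resistant, 7.04, 3.20 and 3.11 CPM in DT-resistant and 1.74, 1.94 and 1.91 CPM in sensitive libraries. Its log2 fold change was 1.06 ± 0.27 in EB-resistant and 1.25 ± 0.27 in DT-resistant cells, both called, and 0.76 in DT-resistant cells without replicate 2 (adjusted p = 0.00234). H2BC8 stood at 5.21, 6.78 and 5.36 CPM in EB-resistant, 1.68, 1.52 and 1.49 CPM in VC-resistant, 3.23, 2.20 and 2.51 CPM in DT-resistant and 2.20, 1.67 and 1.91 CPM in sensitive libraries. EB-resistant cells showed a rise (1.59 ± 0.19), whereas its call in DT-resistant cells (0.46 ± 0.19, adjusted p = 0.0488) was lost on leaving out any 1 of 8 libraries: DT-resistant 2 or 6, EB-resistant 2 or 6, VC-resistant 5 or 6, or sensitive 5 or 6 (adjusted p of 0.0533 to 0.225). H2BC6 stood at 2.77, 5.23 and 3.15 CPM in EB-resistant, 1.39, 1.17 and 1.31 CPM in VC-resistant, 4.32, 2.16 and 1.38 CPM in DT-resistant and 1.18, 0.873 and 1.17 CPM in sensitive libraries. H2BC6 rose in EB-resistant (1.79 ± 0.36) and DT-resistant cells (1.29 ± 0.36, adjusted p = 0.00721), and without DT-resistant replicate 2 the value in DT-resistant cells was 0.73 (adjusted p = 0.0492).

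H2BC15 (chr6:27837760-27855709) was the 1 member called in the same direction in all 3 lines. It stood at 2.04, 1.83 and 1.47 CPM in EB-resistant, 1.29, 1.80 and 1.70 CPM in VC-resistant, 2.23, 1.15 and 1.66 CPM in DT-resistant and 0.566, 0.635 and 0.566 CPM in sensitive libraries. Every resistant library was above every sensitive library, and the 3 resistant lines overlapped each other. Its log2 fold change was 1.59 ± 0.27 in EB-resistant cells, 1.44 ± 0.27 in VC-resistant cells and 1.51 ± 0.27 in DT-resistant cells (adjusted p = 0.00012, 0.000374 and 0.000211). The 3 comparisons share the same sensitive libraries, so the 3 calls are not independent of each other. The deposited length of this gene, 5422 bp, is the longest of the members, and its span overlaps H2AC15 on the opposite strand. The libraries were strand-specific per the labels' protocols, but the sources used here do not state the strand setting of the counting, so reads of the pair cannot be told apart with certainty.

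The remaining H2B genes with at least 1 CPM differed in pattern. H2BC11 stood at 4.42, 4.78 and 5.61 CPM in EB-resistant, 2.83, 2.11 and 2.61 CPM in VC-resistant, 2.66, 3.68 and 3.69 CPM in DT-resistant and 3.46, 3.00 and 3.39 CPM in sensitive libraries. H2BC11 rose in EB-resistant cells, by the smallest fold of the 20 (log2 fold change 0.59 ± 0.17, adjusted p = 0.0095). H2BC7 stood at 1.27, 1.36 and 0.882 CPM in EB-resistant, 0.105, 0.286 and 0.317 CPM in VC-resistant, 0.213, 0.309 and 0.207 CPM in DT-resistant and 0.174, 0.179 and 0.326 CPM in sensitive libraries. It rose 5.15-fold in EB-resistant cells (adjusted p = 8.35e-05), and the other 3 groups overlapped. H2BC18 stood at 1.23, 1.61 and 0.924 CPM in EB-resistant, 0.813, 0.396 and 0.298 CPM in VC-resistant, 0.404, 0.220 and 0.322 CPM in DT-resistant and 0.892, 0.635 and 0.479 CPM in sensitive libraries. It rose in EB-resistant cells (0.91 ± 0.36, adjusted p = 0.0424) and fell in DT-resistant cells (-1.07 ± 0.41, adjusted p = 0.0355). The EB-resistant call was lost without EB-resistant replicate 2 or 5 or sensitive replicate 5 or 6 (adjusted p of 0.0732, 0.179, 0.105 and 0.141), and the DT-resistant call without DT-resistant replicate 5 or 6 or sensitive replicate 2 or 5 (0.124, 0.0685, 0.138 and 0.0612). H2BC18 overlaps another annotated gene on the same strand and shares 17.6% of its windows with other genes.

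The H3 genes were low outside the EB-resistant line. H3C10 (chr6:27810064-27811300) stood at 6.15, 8.88 and 7.52 CPM in EB-resistant, 1.02, 1.08 and 0.989 CPM in VC-resistant, 2.09, 1.59 and 1.75 CPM in DT-resistant and 1.57, 1.41 and 1.70 CPM in sensitive libraries. It rose 4.82-fold in EB-resistant cells (2.27 ± 0.18, adjusted p = 6.03e-08), the smallest adjusted p of any member in that comparison. It fell in VC-resistant cells (-0.59 ± 0.20, adjusted p = 0.0191), a call lost without VC-resistant replicate 6 or sensitive replicate 6 (adjusted p = 0.0637 and 0.0726). H3C6 (chr6:26224199-26227473) stood at 5.27, 7.59 and 6.09 CPM in EB-resistant, 0.551, 1.10 and 0.597 CPM in VC-resistant, 1.19, 0.705 and 1.70 CPM in DT-resistant and 1.15, 1.03 and 1.15 CPM in sensitive libraries. It rose 5.67-fold in EB-resistant cells (2.50 ± 0.29, adjusted p = 2.7e-06) and was not called in the other lines. H3C12 and H3C2 were below 1 CPM in all libraries.

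Of the H4 genes, H4C8 was the most abundant and moved in opposite directions. H4C8 (chr6:26277609-26285638) stood at 10.05, 12.7 and 8.61 CPM in EB-resistant, 0.708, 1.01 and 1.27 CPM in VC-resistant, 1.89, 1.45 and 1.68 CPM in DT-resistant and 2.61, 3.43 and 3.68 CPM in sensitive libraries. The 4 groups did not overlap, with EB-resistant libraries above and both other resistant lines below the parent. It rose in EB-resistant cells (1.69 ± 0.20, adjusted p = 4.5e-06) and fell in VC-resistant (-1.68 ± 0.23, adjusted p = 2.17e-05) and DT-resistant cells (-0.95 ± 0.22, adjusted p = 0.00161). H4C5 and H4C9 also rose in EB-resistant cells, at mean levels under 1 CPM, and the call of H4C5 was lost without EB-resistant replicate 5 or sensitive replicate 2 (adjusted p = 0.075 and 0.0571). H4C3, H4C12 and H4C14 had no call against sensitive. H4C14 shares 94.9% of its windows, and H4C12 all of them, with other H4 genes, so their counts are uncertain.

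The resistant lines were then compared with each other to see where the lines of the 3 drug pairs differed. EB-resistant against VC-resistant cells gave the most member calls, with 24 that rose (29.6% of all genes rose) and 0 that fell (28.8% of all genes fell) by edgeR. At an unadjusted p under 0.05, and with DESeq2, 0 fell too. Among the 26 members that pass the filter without the EB-resistant libraries, 22 rose. The median log2 fold change over the 29 was 1.72, and 3.37 for H4C8 (10.3-fold, adjusted p = 1.57e-08), 3.07 for H3C6 and 2.87 for H3C10 were the highest 3. H3C2, at 0.396, 0.651 and 0.525 CPM in EB-resistant against 0.315, 0.110 and 0.0746 CPM in VC-resistant libraries, had a log2 fold change of 1.72 that became 2.48 without VC-resistant replicate 2. H4C14 was no longer called on leaving out VC-resistant replicate 5 (adjusted p = 0.101) or EB-resistant replicate 5 (0.0765) or 6 (0.0569). H2BC15, with a log2 fold change of 0.15 (adjusted p = 0.614), was among the 5 members without a call.

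EB-resistant against DT-resistant cells gave 19 members that rose (28.4% of all genes rose) and 0 that fell (28.8% of all genes fell) by edgeR, 0 at an unadjusted p under 0.05 and 0 with DESeq2. Of the 26 that pass the filter without the EB-resistant libraries, 17 rose. The median log2 fold change over the 29 was 0.91. The 19 were 4 of 5 H2A, 8 of 11 H2B, 3 of 4 H3 and 4 of 6 H4 genes. H1-2, the leading H1 gene, had a log2 fold change of 0.38 (adjusted p = 0.0882) and was not called, but without DT-resistant replicate 2 it rose by 0.61 (adjusted p = 0.00425). H4C8 was 6.23-fold higher (adjusted p = 1.16e-07), H3C6 5.27-fold, H2BC7 4.79-fold and H3C10 4.15-fold. Without DT-resistant replicate 2 the count was 18, of which 16 were among the 19: H2BC11 (adjusted p = 0.0652), H2AC15 (0.0991) and H4C14 (0.109) were lost, and H1-2 and H2BC6 (log2 fold change 1.06, adjusted p = 0.00501, against 0.219 with it) were gained. H2AC6, with a log2 fold change of 0.81 (adjusted p = 0.03), was lost without DT-resistant replicate 5 (0.0971) or 6 (0.103) or EB-resistant replicate 5 (0.0955), and H2BC5, whose groups overlapped, without the same libraries (0.11, 0.107 and 0.139). H4C12 was lost without DT-resistant replicate 5 (0.0553) or EB-resistant replicate 6 (0.0622), H2BC11 also without EB-resistant replicate 6 (0.0618), H2AC15 also without VC-resistant replicate 5 (0.0523), DT-resistant replicate 6 (0.155) or EB-resistant replicate 5 (0.0905) or 6 (0.115) and H4C14 also without DT-resistant replicate 6 or EB-resistant replicate 5 or 6 (0.0537, 0.0961 and 0.0708).

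VC-resistant against DT-resistant cells gave 0 members that rose (7.08% of all genes rose) and 9 that fell (8.71% of all genes fell). By edgeR at an unadjusted p under 0.05, 0 rose and 16 fell, and DESeq2 called 0 that rose and 12 that fell. The 9 were H1-2, H2AC6, H2AC11, H2BC4, H2BC5, H2BC8, H2BC12, H2BC21 and H3C10, with log2 fold changes between -1.34 (H2BC21) and -0.41 (H2BC12). The replicate numbers pair these lines, and with the replicate number as a block H1-4 (-1.25, adjusted p = 0.0217, against 0.0579 without it) and H4C8 (-0.75, adjusted p = 0.0394, against 0.0509) also fell. Without the block, H1-4 was at -0.81 (adjusted p = 0.249) without DT-resistant replicate 2, at -1.97 (adjusted p = 0.00262) without VC-resistant replicate 2 and at -1.46 (adjusted p = 0.0355) without DT-resistant replicate 6. H4C8 was at -0.63 (adjusted p = 0.140) without DT-resistant replicate 2. Without DT-resistant replicate 2, 7 of the 9 were still called, and H2BC12 (adjusted p = 0.0947) and H2BC8 (0.0666) were not. Leaving out VC-resistant replicate 5 or 6 ended the calls of H2AC6 (0.0665 and 0.0724), H2BC5 (0.0504 and 0.0551), H2BC12 (0.0735 and 0.0941) and H2BC8 (0.0535 and 0.0623).

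Many H2A and H2B genes lie head to head and share a promoter region. In the deposited coordinates 7 H2A and H2B pairs started 219 to 283 bp apart on opposite strands. H2BC4 and H2AC6, 219 bp apart, both rose in EB-resistant and in DT-resistant cells (log2 fold changes as given above), although H2AC6 averaged 36.5 CPM and H2BC4 3.07 CPM over the 12 libraries. H2BC11 and H2AC11, 247 bp apart, both rose in EB-resistant cells, while in VC-resistant cells H2AC11 fell and H2BC11 was not called (log2 fold change -0.38, adjusted p = 0.0855). In 4 of the 7 pairs 1 partner had too few counts to be tested. H2AC12 had 26 counts over the 12 libraries beside H2BC12 at 61.9 CPM, and H2AC20 had 92 counts beside H2BC21 at 16.5 CPM. H2BC13 had 81 counts beside H2AC13 at 1.21 CPM, and H2AC17 had 45 counts beside H2BC17 at 0.386 CPM. H2BC8 rose in EB-resistant cells and its partner H2AC8 was not called there (0.55, adjusted p = 0.228).

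How far counts of near copies can be trusted was read from the transcripts. Of the 44 members with a GENCODE release 29 transcript, 28 were counted as sharing no 100-base window with any other gene. Among them were 7 of the 10 most abundant members, and 8 members were counted as sharing more than 50% of their windows. Of the other 3 abundant members, H2BC12 shared 28.4% of its windows with another H2B gene, H2BC21 2.63% and H2AC11 0.0930%. The 28 include H2AC15, which overlaps H2BC15 on the opposite strand. Windows common to that pair were credited to H2BC15 only, which shared 299 of its 5475 windows with H2AC15 and H2BC6. H2AC15 therefore does not belong among the 28. H2BC6 shared 25.6%, and H2BC5 and H2BC6 both overlap another annotated gene on the opposite strand. H2BC5 also overlaps an annotated gene, LARP1P1, on the same strand. The sources used here do not state how reads that fit more than 1 place were counted.

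Genes of DNA replication, which are expressed in S phase like the histones, did not rise with them against sensitive cells. For the gene lists that follow, the shares of all genes tested that rose and fell against sensitive were 28.5% and 27.6% in EB-resistant, 27.6% and 27.4% in VC-resistant and 29.8% and 29.3% in DT-resistant cells. Of 41 S phase genes tested against sensitive, 1 rose and 22 fell in EB-resistant, 0 rose and 26 fell in VC-resistant and 0 rose and 33 fell in DT-resistant cells by edgeR, and in both lines with a count of 0 that count was also 0 at an unadjusted p under 0.05 and with DESeq2. Their median log2 fold changes were -0.45 in EB-resistant, -0.53 in VC-resistant cells and -0.80 in DT-resistant cells. In EB-resistant against DT-resistant cells, 15 of the 41 rose and 2 fell (28.4% and 28.8% of all genes), with a median of 0.35. In EB-resistant against VC-resistant cells, 7 rose and 7 fell (29.6% and 28.8% of all genes), with a median of 0.10. Where 3 log2 fold changes against sensitive stand together from here on, they are those of EB-resistant, then VC-resistant, then DT-resistant cells. The summed level was 2824, 2681 and 3196 CPM in EB-resistant, 2273, 2915 and 2921 CPM in VC-resistant, 1685, 2466 and 2502 CPM in DT-resistant and 3277, 4171 and 4659 CPM in sensitive libraries. Every resistant library was below every sensitive one, and DT-resistant replicate 2 was the lowest of all, in the group where it was the highest for the histone sum. PCNA, the sliding clamp of replication, stood at 149.5 ± 16.9 CPM in EB-resistant, 121 ± 32.1 CPM in VC-resistant, 98.7 ± 24.2 CPM in DT-resistant and 210.1 ± 61.2 CPM in sensitive libraries (SD, n = 3 each). It fell in DT-resistant cells (-1.09, adjusted p = 0.00716) and in VC-resistant cells (-0.79, adjusted p = 0.0337), where the call was lost without VC-resistant replicate 2 or 5 or sensitive replicate 5 or 6. Of 30 G2 and mitosis genes, 21 fell in EB-resistant, 17 in VC-resistant cells and 19 in DT-resistant cells, and 1 rose in each line. Their sum in DT-resistant replicate 2, 4436 CPM, was likewise below the 5416 and 5632 CPM of the other DT-resistant libraries.

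**Figure D4:**
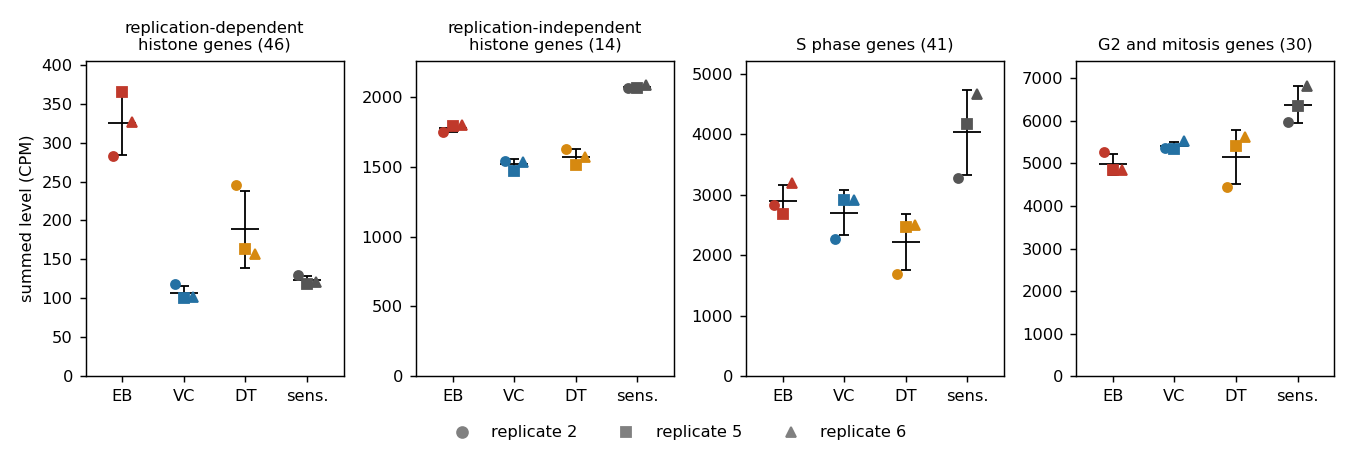
Summed level in CPM (vertical axes, starting at 0) of the 46 replication-dependent histone genes, 14 replication-independent histone genes, 41 S phase genes and 30 G2 and mitosis genes in each library; bars are the group mean ± SD (n = 3). The S phase sums of all resistant libraries, at most 3196 CPM, lie below those of the sensitive libraries, at least 3277 CPM, while the histone sum of the EB-resistant libraries is the highest of the 4 groups.

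The list of replication-independent and variant histone genes holds mostly genes with polyadenylated mRNAs, whose proteins replace histones outside S phase, but also others, among them H2AX, whose mRNA can end at a stem-loop as well, and the pseudogene H2BC20P. Of the 14 tested, 2 rose and 5 fell in EB-resistant, 0 rose and 10 fell in VC-resistant and 1 rose and 7 fell in DT-resistant cells, and for VC-resistant cells 0 rose also at an unadjusted p under 0.05 and with DESeq2. They summed to 1780 ± 28.6 CPM in EB-resistant, 1516 ± 39.8 CPM in VC-resistant, 1568 ± 57.2 CPM in DT-resistant and 2072 ± 12.1 CPM in sensitive libraries (SD, n = 3 each), well above the replication-dependent sum. H3-3B, which encodes the variant H3.3, fell in all 3 lines (log2 fold changes -0.73, -0.41 and -0.53). H2AX, whose protein is phosphorylated at DNA breaks, fell in VC-resistant (-1.43, adjusted p = 4.1e-07) and DT-resistant cells (-1.40, adjusted p = 3.6e-07) and was not called in EB-resistant cells (-0.19, adjusted p = 0.195). H1-10, a linker histone variant, rose in EB-resistant (0.57) and DT-resistant cells (0.48). The 5 of the list that fell in EB-resistant cells, a number near the share of all genes, were H2AZ2, MACROH2A1, CENPA, H3-3B and H2AJ.

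Among 11 genes that drive histone transcription, 1 rose and 3 fell in EB-resistant, 2 rose and 3 fell in VC-resistant and 3 rose and 6 fell in DT-resistant cells. The numbers that fell in EB-resistant and VC-resistant cells and that rose in DT-resistant cells were near the share of all genes. HINFP, a factor of H4 gene promoters, rose in all 3 lines, with 29.3 ± 2.93 CPM in EB-resistant, 24.5 ± 0.595 CPM in VC-resistant, 26.9 ± 3.07 CPM in DT-resistant and 15.3 ± 1.03 CPM in sensitive libraries (log2 fold changes 0.94, 0.68 and 0.82). NPAT, the coactivator of the histone locus body, was called in DT-resistant cells, where it fell (-0.33, adjusted p = 0.00626). CDK2, the kinase that acts on NPAT, fell in all 3 lines (-1.14, -0.30 and -0.40), as did CDC25A, its activating phosphatase (-1.65, -0.76 and -1.13). POU2F1, which binds the octamer, rose in VC-resistant (0.71) and DT-resistant cells (0.92).

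The machinery that cuts and degrades histone mRNA was tested as 22 genes, of which 1 rose and 11 fell in EB-resistant, 2 rose and 9 fell in VC-resistant and 2 rose and 12 fell in DT-resistant cells. SLBP stood at 56.6 ± 7.32 CPM in EB-resistant, 69.3 ± 9.18 CPM in VC-resistant, 64.4 ± 7.46 CPM in DT-resistant and 97.9 ± 14.5 CPM in sensitive libraries (SD, n = 3 each). It fell in all 3 lines (log2 fold changes -0.79, -0.50 and -0.60, adjusted p = 0.000135, 0.00507 and 0.00116). CPSF3, the nuclease that cuts both histone and other pre-mRNAs, also fell in all 3 lines (-1.21, -0.40 and -0.58). LSM11, a protein of the U7 snRNP, fell in EB-resistant cells (-0.41, adjusted p = 0.00369) and rose in VC-resistant (1.16, adjusted p = 3.48e-07) and DT-resistant cells (0.83, adjusted p = 7.04e-06). ERI1, an exonuclease that trims histone mRNA ends, fell in EB-resistant (-0.86) and DT-resistant cells (-0.68) and was not called in VC-resistant cells (-0.10, adjusted p = 0.377). Of 18 histone chaperones, 1 rose and 6 fell in EB-resistant, 4 rose and 8 fell in VC-resistant and 4 rose and 11 fell in DT-resistant cells, and NASP, a carrier of H3 and H4, fell in all 3 (-0.46, -0.26 and -0.34, the VC-resistant call being lost without VC-resistant replicate 2 or 5 or sensitive replicate 6). Of 14 polyadenylation factors, 3 rose and 5 fell in EB-resistant, 2 rose and 9 fell in VC-resistant and 1 rose and 9 fell in DT-resistant cells, among them PAPOLA, the main poly(A) polymerase, which fell in all 3 (-0.48, -0.66 and -0.67). The counts of chaperones and of polyadenylation factors that fell in EB-resistant cells were near the share of all genes. Whether these changes bear on the histone levels was not tested.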

How the data were processed

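Polyadenylated RNA of 12 WM1366 libraries (4 groups of 3) was converted with a strand-specific kit from 500 ng of total RNA and read as paired ends of 100 bases, per the labels' protocols. Per the submitters' processing notes, the tools were bcl2fastq 2.20.0, STAR 2.7.10b, featureCounts 2.0.1 and DESeq2 1.38.3, with hg38. The deposited count table holds whole read counts per gene. The deposited signal table equals those counts divided by 1 size factor per library within 0.05. Beyond that check, the signal table was used only for an alternative version of the summed levels. Columns not mapped to a sample numbered 0, and no duplicate libraries were found. Not given in the sources used here: strand setting, annotation release and treatment of multiply mapped reads. Since 17 members fell below the filter, they enter the sums only.

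From the counts, genes were filtered (filterByExpr), scaled (TMM) and fitted in 1 robust quasi-likelihood model of all 12 libraries in edgeR 4.0.16 (limma 3.58.1, R 4.3.3; 8 residual degrees of freedom), with Benjamini-Hochberg adjustment over 17114 genes and a threshold of 0.05. Standard errors were back-calculated from F. CPM use TMM-scaled totals. Alternatives were DESeq2 1.42.0, RLE scaling, no filter, only the 2 groups compared, a replicate block and each library left out. For the sums they were also the deposited signal table, and sums without the most abundant member or without mitochondrial or ribosomal protein genes. Deviations from group means correlated at 0.337, 0.151 and 0.195 in same-numbered VC-resistant and DT-resistant libraries, so the data pair these lines; no other pair of groups met 0.1 in all 3.

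The members and the 9 comparison lists were chosen with earlier results of these data known. Values per library were given for the 10 most abundant members and for members called in at least 1 of 6 comparisons at 1 CPM or more in the higher group. The fit was tested on simulated data with known changes in the EB-resistant group. Protein identity between members was not analysed here. Stem-loops and shared windows came from GENCODE release 29 (GRCh38), promoters from RefSeq (GRCh38.p14). Figures used matplotlib 3.10.9 in Python 3.11.15.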

Additional observations from a re-analysis of the deposited data

Results flagged for a closer look

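For 5 histone genes, 2 resistant lines were called in opposite directions against the same sensitive parent. The difference between the lines was also called by edgeR with adjustment over all genes tested. These genes were picked by all of these calls. In the shared model the difference between the lines follows from the 2 changes against sensitive, so its adjusted p is no separate support. H4C8 was the most divergent, with a log2 fold change of 3.37 in EB-resistant against VC-resistant cells (adjusted p = 1.57e-08) and of 2.64 in EB-resistant against DT-resistant cells (adjusted p = 1.16e-07). H3C10 differed by 2.87 (adjusted p = 1.29e-08) and H2AC11 by 2.59 (adjusted p = 7.09e-09) in EB-resistant against VC-resistant cells. H1-2 differed by 1.60 in EB-resistant against VC-resistant cells (adjusted p = 7.1e-06) and by -1.22 in VC-resistant against DT-resistant cells (adjusted p = 0.000535). H2BC18 differed by 1.98 in EB-resistant against DT-resistant cells (adjusted p = 0.000534), on low means of 1.25 CPM in EB-resistant and 0.316 CPM in DT-resistant libraries. The opposite movement of H1-2 and of H3C10 rests in part on falls in VC-resistant cells that single libraries ended, and that of H2BC18 on calls that single libraries ended in both lines.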

How the results depend on the processing

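Of 204 counts of called members under the alternatives, 198 stayed within 1.5 times the reported count. With only the 2 groups fitted, 2 members rose in VC-resistant against sensitive cells in place of 1. With the replicate block, 1 member (H4C3) fell in EB-resistant against VC-resistant cells in place of 0, and H1-4 rose in EB-resistant against sensitive (adjusted p = 0.0434) and against VC-resistant cells (0.0246); outside VC-resistant against DT-resistant cells it changed no other member call. Over the leave-one-out fits, members that fell numbered 1 to 3 in DT-resistant against sensitive, 0 to 1 in EB-resistant against VC-resistant and 5 to 11 in VC-resistant against DT-resistant cells, where all genes that rose numbered 756 to 1306 and those that fell 966 to 1596. Without the most abundant member of a sum, the log2 ratio of all members was 1.89 in EB-resistant against VC-resistant cells (1.61 with it). For H1 it was 0.65 in EB-resistant and -0.17 in VC-resistant against sensitive, 0.81 in EB-resistant against VC-resistant and, with its sign turned, -0.25 in EB-resistant against DT-resistant cells (0.35 with H1-2). For H2A it was -0.79 in VC-resistant and 0.10 in DT-resistant against sensitive cells. For H2B it was 1.64 in EB-resistant and 0.92 in DT-resistant against sensitive, 1.67 in EB-resistant against VC-resistant and -0.96 in VC-resistant against DT-resistant cells. For H4 it was 0.82 in EB-resistant cells, -0.39 in VC-resistant cells and -0.28 in DT-resistant cells against sensitive, 1.21 in EB-resistant against VC-resistant and 1.10 in EB-resistant against DT-resistant cells. Log2 ratios near 0 crossed it when single libraries were left out: H2B in VC-resistant against sensitive cells (-0.02, at most 0.03) and H3 in DT-resistant against sensitive cells (-0.07, at most 0.06). The cause was not tested, apart from the construction of these sums without their leading gene.

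Polyadenylated RNA samples a part of histone RNA, and its share of all histone RNA was not measured. The 3 replicates cover the spread between experiments of 1 line per drug pair, and near copies limit which gene a count belongs to. With 11 to 92 counts in 12 libraries, no change is reported for single untested members, and changes among them may have been missed at this depth.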
